A study of Rattus norvegicus with 3 samples.

Results

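The genes described here build, cap, bundle and recycle actin filaments: actins, thymosins, profilins, the Arp2/3 and WAVE complexes, Ena/VASP proteins, formins, cappers and bundlers. The group was defined by name, as 56 gene symbols, and not by a cut on a measured value. Earlier results of these data were known when the symbols were chosen. Of these, 53 genes matched 58 rows of a table of 26353 entries, and 17611 of those entries were above 0 in at least 1 library. Diaph1, Diaph2 and Fscn1 matched no row under these symbols and were not analysed here under these names.

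The RNA was that of rat commissural neurons, spinal cord cells whose axons cross the midline, isolated on embryonic day 13 and cultured for 2 days. The 3 libraries form 1 group, called libraries 1, 2 and 3 by the replicate numbers in the labels, with no treated or control group. The labels name no strain and no genotype, and do not say if separate cultures or animals were used. All p-values therefore measure only the spread between these libraries, which may be technical.

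Actin exists as free monomers and as filaments, and growth cones steer by adding and removing filaments at their leading edge. Thymosins hold monomers in reserve and profilins deliver them to growing ends. The Arp2/3 complex starts branches on existing filaments when a WASP or WAVE protein activates it, and the small GTPase Rac acts through the WAVE complex. Formins and Ena/VASP proteins extend unbranched filaments, capping protein stops growth at the fast-growing end, and bundling proteins bind filaments side by side.

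Levels are in FPKM as the authors deposited them, which scales fragments by transcript length and by mapped fragments, so that genes can be set beside each other. The depth of the libraries in reads is unknown, and no counting intervals are given. Neuron markers were high, with 7 of 7 above 1 FPKM and Tubb3 at 960 ± 70.2 FPKM (SD, n = 3). All 4 commissural markers were above 1 FPKM, and their summed level was 245, 172 and 252 FPKM in libraries 1, 2 and 3. The cultures also held 7 of 7 progenitor markers (summed 949, 1206 and 980 FPKM) and 6 of 6 proliferation markers above 1 FPKM. Of all entries tested 63.7% passed this level. Of the progenitor markers 5 of 7 lay above 10 FPKM, and they ran from Fabp7 at 564 ± 106 FPKM to Pax6 at 2.86 ± 0.263. Of the microglia and macrophage markers 3 of 7 passed (summed 11.7, 19.3 and 17.8 FPKM), of the fibroblast and mural markers 1 of 6 (summed 3.63, 4.13 and 3.13), and of the endothelial and muscle markers 0 of 5 and 0 of 4 in limma's test. Among the fibroblast and muscle markers, Dcn and Myog were listed at 0 throughout and were not tested. Of 3 erythroid markers 1 passed, Hba1, with 56.9, 30.2 and 12.4 FPKM. In bulk RNA, fewer cells of a type and less RNA per cell cannot be told apart, so which cells a transcript came from cannot be read from these values.

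Of the 53 genes, 48 passed a one-sided limma test against a level of 1 FPKM, with Benjamini-Hochberg adjustment over all 17611 entries, against 63.7% of all entries tested. Above 10 FPKM were 38 genes, against 33.7% of all entries, and above 100 FPKM 13 genes, against 2.95%. The median of the 53 means was 38.6 FPKM, and that of all entries tested was 4.81 FPKM. The symbols were chosen with earlier results of these data known, so these counts describe the genes named and no more. The 5 genes that did not pass at 1 FPKM were Cttn, Fmnl1, Diaph3, Cap2 and Fmn1.

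**Figure D1:**
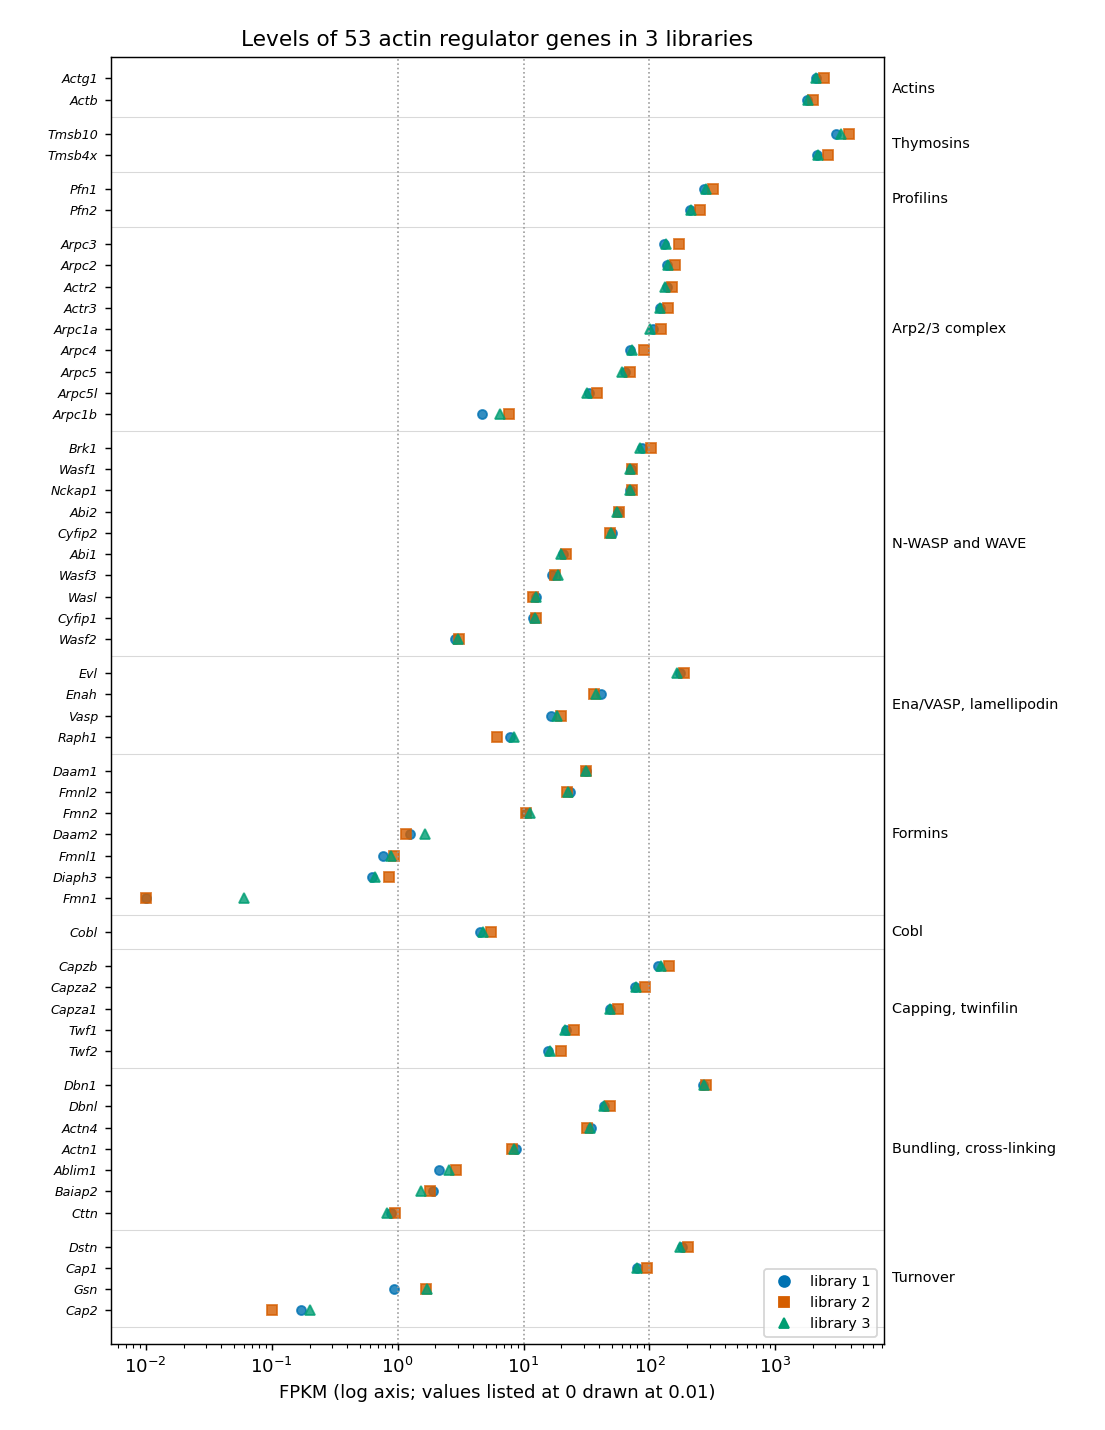
FPKM of each of the 53 genes on a log axis, 1 row per gene, grouped by role, with a circle, square and triangle for libraries 1, 2 and 3 and dotted lines at 1, 10 and 100 FPKM. Actins and thymosins stand above 1770 FPKM in every library, the Arp2/3 genes other than Arpc1b lie between 31.8 and 172 FPKM, and the formins reach 31.5 FPKM at most.

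The 4 genes for actin itself and for thymosins, which sequester actin monomers, were the highest of the group. Tmsb10 had 3026, 3829 and 3321 FPKM in libraries 1, 2 and 3. The Tmsb10 entry used is described as thymosin beta-10-like, and a second one with the same description had 17.02, 33.35 and 18.82 FPKM. Of all entries 68 had a higher mean, and 1 of these had a description. Tmsb4x had 2122, 2628 and 2191 FPKM. Library 2 was the highest for both, as it was for 67.8% of all entries with a mean of at least 5 FPKM. The ranges of the pair did not overlap. Within each library Tmsb10 exceeded Tmsb4x by 1.47-fold (1.36 to 1.58 as the 95% interval, Benjamini-Hochberg limma adjusted p = 0.0022, 3 of 3 libraries). Fold differences are on the log2(FPKM + 0.1) scale, which understates those of low genes.

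The cytoplasmic actins are the beta actin Actb and the gamma actin Actg1, whose proteins are nearly identical. Actg1 had 2085, 2409 and 2119 FPKM, and Actb had 1770, 1978 and 1815 FPKM. Actg1 was the higher of the pair in every library, by 1.19-fold (1.12 to 1.26, Benjamini-Hochberg limma adjusted p = 0.0057), and held 54.3% ± 0.557 of their summed FPKM. The authors' table describes the Actb entry as an actin gamma 1 propeptide-like gene. How the authors assigned reads that match both genes is not given in the sources used here, so the split between the pair is uncertain. The difference did not pass in the moderated fit when at least 1.5-fold was required, nor did that between the thymosins.

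The muscle actin genes on the list of further actin genes were far lower. Acta1, the skeletal muscle actin, had 0.49, 0.39 and 0.62 FPKM and the cardiac Actc1 was at 0 in all 3. Actin genes are known targets of serum response factor, which binds the CArG box, a palindrome-like element of promoters. The promoters of Actg1 and Acta1 are shown because both hold this box at almost the same distance from the start while their RNA levels were 2204 ± 179 and 0.39 to 0.62 FPKM. The stretches are from RefSeq on GRCr8, end before the transcription start, and have the CArG box in capitals.
Actg1 (chr10:106120982-106121091, minus strand): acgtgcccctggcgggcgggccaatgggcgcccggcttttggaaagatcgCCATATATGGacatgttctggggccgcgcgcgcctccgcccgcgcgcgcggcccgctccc
Acta1 (chr19:68784229-68784338, minus strand): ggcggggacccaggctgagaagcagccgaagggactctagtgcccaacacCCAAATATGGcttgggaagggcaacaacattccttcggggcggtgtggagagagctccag

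In Actg1 the box spans positions -90 to -81 from the annotated start, and in Acta1 -94 to -85. RefSeq windows of 250 bases before to 50 after the start were matched by symbol for 51 of the 56 genes. Actb, Arpc1a, Actn4, Cap1 and Twf2 were not matched. A CArG box, searched on both strands, was found for 1 of the 51 genes (1.96%), Actg1, against 1.64% of all 33469 windows. A gene was counted if any window under its symbol matched, so shares of genes are set beside a share of single windows. Of the further actin genes, among which Acta1 is listed, 4 of the 78 with a window had one (5.13%), Acta1, Actc1, Lima1 and Svil. TATAAA, on either strand, was found for 2 of the 51 genes (3.92%), Baiap2 and Fscn1, against 14.2% of all windows. A match is a run of letters and was not tested as a binding site.

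Profilins, which bind monomers and hand them to formins and Ena/VASP proteins, were lower than the actins and thymosins. Pfn1 had 272, 321 and 280 FPKM and Pfn2 had 211, 253 and 215 FPKM. Pfn1 was above Pfn2 in each library, by 1.29-fold (1.24 to 1.33, Benjamini-Hochberg limma adjusted p = 0.0012). The ranges of the pair did not overlap, with library 2 of Pfn2 below library 1 of Pfn1. The Pfn2 entry used is described as profilin-2-like, and a second one, described as profilin 2, had 0.91, 1.75 and 0.82 FPKM. Summed over relatives, thymosins were at 1.34, 1.47 and 1.40 times the level of the 2 actins in libraries 1, 2 and 3. The actins were at 7.97, 7.64 and 7.93 times the level of the 2 profilins. These ratios are of RNA per length and do not give protein amounts.

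Of the 9 genes of the Arp2/3 complex, 9 lay above 1 FPKM, 8 above 10 FPKM and 4 above 100 FPKM, against 63.7%, 33.7% and 2.95% of all entries. The complex has 7 subunit positions, and 2 of them, ArpC1 and ArpC5, can each be filled by either of 2 relatives. Actr2, which codes for the actin-like Arp2 subunit, had 137, 150 and 133 FPKM. Arpc2, part of the clamp that holds the complex to the mother filament, had 137, 160 and 141 FPKM. Arpc3 had 130, 172 and 136 FPKM, and Actr3, the gene of the Arp3 subunit, 122, 141 and 120 FPKM. The Actr3 entry is described as actin-related protein 3B-like, so its match to the Arp3 subunit rests on the symbol. Library 2 was the highest for each of the 9 genes, as it was for 67.8% of all entries with a mean of at least 5 FPKM.

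Set against Actr2 within each library, 6 of the other 8 genes differed past the threshold, and all 6 were lower. Of all entries set against Actr2, 99% differed (98.6% without variance moderation) and 96.6% were lower, as most entries of any kind were. For Arpc2 the difference missed the threshold (0.06 on the log2 scale, between -0.06 and 0.18 at 95%, Benjamini-Hochberg limma adjusted p = 0.18), and so did that of Arpc3 (0.06, between -0.27 and 0.39, Benjamini-Hochberg limma adjusted p = 0.54). Actr3 was lower by 1.09-fold (1.03 to 1.17, Benjamini-Hochberg limma adjusted p = 0.027). In the moderated fit this did not pass without library 1 (Benjamini-Hochberg limma adjusted p = 0.090) and without library 3 (Benjamini-Hochberg limma adjusted p = 0.12). Arpc1a was lower by 1.28-fold and Arpc4 by 1.81-fold.

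At the ArpC1 position Arpc1a was the main gene and at the ArpC5 position the split was more even. Arpc1a had 106, 122 and 101 FPKM, and Arpc1b, known for its part in blood cells and platelets, had 4.70, 7.67 and 6.50 FPKM. Arpc1b made up 4.24%, 5.89% and 6.07% of the ArpC1 sum in libraries 1, 2 and 3. Arpc5 had 64.0, 70.3 and 60.4 FPKM and Arpc5l had 32.9, 38.7 and 31.8, a difference of 1.88-fold (1.73 to 2.05, Benjamini-Hochberg limma adjusted p = 0.0017). Arpc5l held 34.6% ± 0.782 of the ArpC5 sum. With relatives added up, the 7 positions ran from 77.7 ± 10.9 FPKM for ArpC4 to 146 ± 22.5 for ArpC3, and the highest position was 1.95, 1.91 and 1.93 times the lowest in the 3 libraries.

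**Figure D2:**
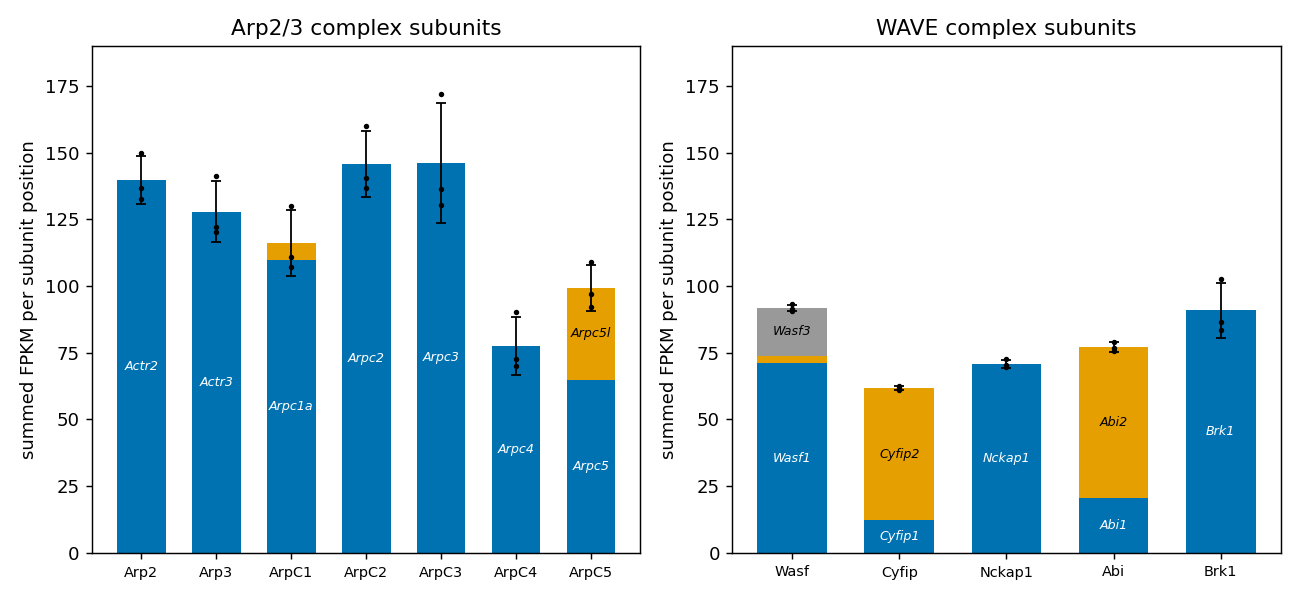
Summed FPKM at each subunit position of the Arp2/3 complex (left) and the WAVE complex (right), as stacked bars of the mean of each gene, with error bars for the SD over 3 libraries and a point for each library. Arp2/3 positions lie between 77.7 and 146 FPKM and WAVE positions between 61.8 and 91.8 FPKM; the unlabelled slices are Arpc1b and Wasf2.

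All 10 genes of N-WASP and the WAVE complex lay above 1 FPKM and 9 lay above 10 FPKM, while 0 lay above 100 FPKM in limma's test (0 at an unadjusted p under 0.05). Over all entries the shares were 63.7%, 33.7% and 2.95%. Wasf1, which codes for WAVE1, had 71.0, 72.5 and 69.5 FPKM. Wasf3 had 17.0, 17.6 and 18.9 FPKM and Wasf2, the WAVE protein known from many tissues outside the brain, had 2.86, 3.06 and 3.03. Their ranges were far apart, and Wasf1 held 77.3% ± 1.14 of the WAVE sum. Wasf1 exceeded Wasf3 by 3.97-fold (3.34 to 4.71, Benjamini-Hochberg limma adjusted p = 0.0015, 3 of 3 libraries), and Wasf3 exceeded Wasf2 by 5.82-fold (5.27 to 6.42, Benjamini-Hochberg limma adjusted p = 0.0012). Wasl, the gene of N-WASP, which Cdc42 activates, had 12.5, 12.0 and 12.6 FPKM, below Wasf1 by 5.71-fold (5.08 to 6.41).

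Within the WAVE complex each pair of relatives had a main member. Cyfip1 and Cyfip2 code for the subunit that binds active Rac. Cyfip2 had 50.0, 48.5 and 49.9 FPKM and Cyfip1 11.9, 12.6 and 12.4 FPKM, a difference of 4.0-fold (3.58 to 4.47, Benjamini-Hochberg limma adjusted p = 0.0020, 3 of 3 libraries). Abi2 had 56.2, 57.4 and 55.7 FPKM and exceeded Abi1, at 20.5, 21.8 and 19.8 FPKM, by 2.72-fold (2.50 to 2.96, Benjamini-Hochberg limma adjusted p = 0.0018). Cyfip2 thus held 80.1% ± 0.714 and Abi2 73.2% ± 0.678 of their pair's sum. Nckap1, the partner of Cyfip in the complex, had 69.8, 72.7 and 70.3 FPKM, and Brk1, the smallest subunit, had 86.5, 103 and 83.5.

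Summed by position, the WAVE complex stood at 61.8 to 91.8 FPKM. Cyfip genes summed to 61.8 ± 0.664 FPKM, Nckap1 stood at 70.9 ± 1.54, Abi genes at 77.2 ± 1.86, Brk1 at 90.8 ± 10.3 and Wasf genes at 91.8 ± 1.22. The highest position was 1.47, 1.68 and 1.47 times the lowest in libraries 1, 2 and 3. Whether this differs from the Arp2/3 complex was not tested.

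Ena/VASP proteins sit at the tips of filopodia and lamellipodia and keep filaments growing. Evl had 174, 189 and 165 FPKM, Enah, the gene of Mena, 41.6, 36.3 and 37.8, and Vasp 16.6, 19.7 and 18.4 FPKM. Their ranges did not overlap, and Evl held 75.5% ± 1.39 of the sum. Evl exceeded Enah by 4.55-fold (3.40 to 6.08, Benjamini-Hochberg limma adjusted p = 0.0040, 3 of 3 libraries), and Enah exceeded Vasp by 2.11-fold (1.44 to 3.09, Benjamini-Hochberg limma adjusted p = 0.017). Enah was lowest in library 2, where Evl and Vasp were highest. Of all entries with a mean of at least 5 FPKM, 19.4% were lowest and 67.8% highest in library 2. Raph1, which codes for lamellipodin, the membrane anchor of these proteins, had 7.83, 6.13 and 8.43 FPKM and was also lowest in library 2.

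Formins nucleate unbranched filaments and stay at the growing end. Of 7 formins 4 lay above 1 FPKM, 2 above 10 FPKM and 0 above 100 FPKM in limma's test (0 at an unadjusted p under 0.05). The shares of all entries above these levels were 63.7%, 33.7% and 2.95%, so the formin counts do not set these genes apart. Daam1, which links Wnt and planar polarity signals to actin, had 31.4, 31.5 and 31.4 FPKM. Fmnl2, a formin of lamellipodia and filopodia, had 23.2, 22.2 and 22.4 FPKM. Fmn2, known from the nervous system and from oocytes, had 10.4, 10.5 and 11.2 FPKM and did not pass at 10 FPKM (Benjamini-Hochberg limma adjusted p = 0.29). The ranges of the 3 genes did not overlap. The Fmn2 entry is described as formin 2-like and the Fmnl2 entry as similar to formin-like 2 isoform B.

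The other formins with the symbols chosen were near or below 1 FPKM. Daam2 had 1.26, 1.16 and 1.65 FPKM, below Daam1 by 21.9-fold (14.2 to 33.6, Benjamini-Hochberg limma adjusted p = 0.0024). It passed at 1 FPKM but not without library 3 (Benjamini-Hochberg limma adjusted p = 0.18) or with libraries rescaled to their mean sum (0.051). Fmnl1, known mainly from blood cells, had 0.77, 0.93 and 0.89 FPKM, below Fmnl2 by 23.6-fold (17.9 to 31.2, Benjamini-Hochberg limma adjusted p = 0.0012). Diaph3 had 0.63, 0.85 and 0.66 FPKM, and Fmn1 was listed at 0, 0 and 0.06. An entry with the symbol Diap1, which the table describes as diaphanous-related formin 1 and RefSeq lists as a synonym of Diaph1, had 8.68, 8.36 and 9.07 FPKM. It lies outside the symbols that define the group, was chosen after its values were seen and enters no count. Cobl, a nucleator of unbranched filaments in developing neurons, had 4.49, 5.53 and 4.74 FPKM.

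Capping protein is a dimer of an alpha and a beta chain that closes the fast-growing filament end. Capzb, the beta chain, had 118, 142 and 123 FPKM, Capza2 77.1, 91.5 and 77.6, and Capza1 48.7, 56.5 and 49.0. The alpha chains summed to 126, 148 and 127 FPKM, which was 1.07, 1.04 and 1.03 times the level of the beta chain. Capza2 exceeded Capza1 by 1.59-fold (1.54 to 1.65, Benjamini-Hochberg limma adjusted p = 0.0011, 3 of 3 libraries) and Capzb exceeded Capza2 by 1.55-fold (1.47 to 1.64, Benjamini-Hochberg limma adjusted p = 0.0014). The call between Capzb and Capza2 was lost in the moderated fit when at least 1.5-fold was required. Twf1, which codes for twinfilin, a binder of monomers and capping protein, had 22.8 ± 2.19 FPKM and exceeded Twf2, at 17.3 ± 2.33, by 1.32-fold (1.18 to 1.48, Benjamini-Hochberg limma adjusted p = 0.011).

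**Figure D3:**
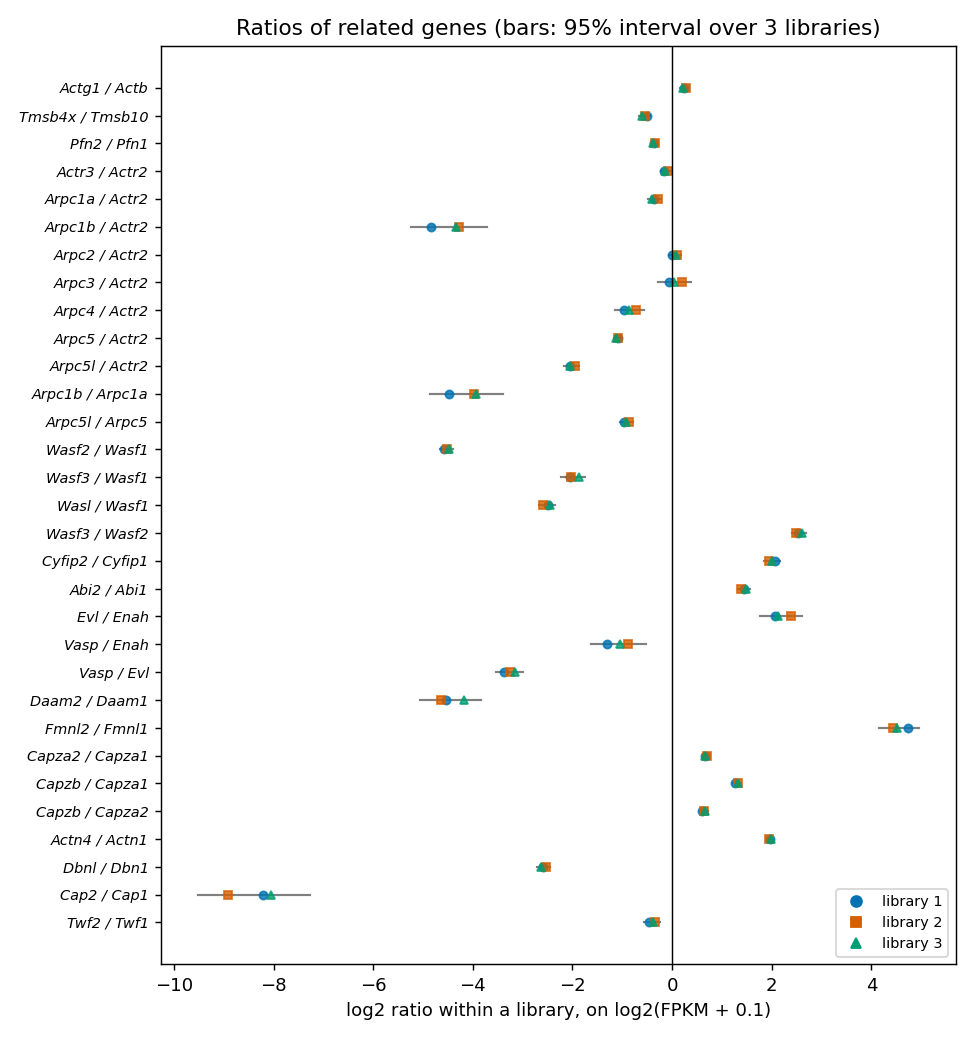
log2 ratio of related genes within each library, on log2(FPKM + 0.1), with a symbol per library and a bar for the 95% interval over 3 libraries, for 31 of the 32 pairs (the pair with Fmn1, listed at 0 in 2 libraries, is left out). Positive values mean that the first gene is higher; only the intervals of Arpc2 and Arpc3 against Actr2 include 0 among the pairs drawn.

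Over the planned pairs, 32 of 35 had both genes in the table, and 30 of the 32 differed past the threshold in the moderated fit. They were also 30 of 32 without moderation, from which all intervals and p-values of pairs above were taken unless said otherwise. The same call covered most genes of any kind. Of all entries, the share that differed in the moderated fit, with the share without moderation in brackets, was 99.6% (99.5%) against Actb, 99.6% (99.6%) against Tmsb10, 99.4% (99.2%) against Pfn1, 98.7% (98.1%) against Arpc1a and 98.1% (97%) against Arpc5. It was 98.1% (96.9%) against Wasf1, 94.7% (90.5%) against Wasf2, 94.4% (90.2%) against Cyfip1, 95.2% (91.6%) against Abi1 and 94.7% (90.2%) against Enah. For the next genes it was 99.1% (98.8%) against Evl, 95.6% (92.7%) against Daam1, 81.6% (76.7%) against Fmn1, 95% (89%) against Fmnl1 and 97.8% (96.5%) against Capza1. For the remaining genes it was 98.6% (97.8%) against Capza2, 93.2% (87.6%) against Actn1, 99.3% (99.1%) against Dbn1, 98.6% (97.8%) against Cap1 and 95.2% (91.4%) against Twf1. When at least 1.5-fold was required 23 of the 32 passed in the moderated fit, and this margin was not tested without moderation. The calls lost were those of Actg1 and Actb, the thymosins, the profilins, Actr3 and Arpc1a against Actr2, Capzb and Capza2, and the twinfilins.

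Among bundling and cross-linking genes 6 of 7 lay above 1 FPKM, 3 above 10 FPKM and 1 above 100 FPKM, against 63.7%, 33.7% and 2.95% of all entries. Dbn1, which codes for drebrin, a filament binder of growth cones that links actin to microtubule ends, had 266, 282 and 270 FPKM. Dbnl, its relative with an SH3 domain, had 43.8, 48.8 and 43.5 FPKM, below Dbn1 by 6.0-fold (5.50 to 6.55, Benjamini-Hochberg limma adjusted p = 4.0e-04). The alpha-actinin Actn4 had 34.2, 31.7 and 33.5 FPKM and exceeded Actn1, at 8.66, 8.12 and 8.35, by 3.92-fold (3.79 to 4.06, Benjamini-Hochberg limma adjusted p = 0.0018). Ablim1, a LIM protein that binds filaments, had 2.54 ± 0.395 FPKM. Baiap2, which codes for IRSp53, a membrane-bending partner of Cdc42 and WAVE, had 1.75 ± 0.197. Cttn, the gene of the branch-stabilizing protein cortactin, had 0.89, 0.96 and 0.83 FPKM and did not pass at 1 FPKM, and a second row named Cttn held 0 throughout.

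Of the genes of filament turnover, Dstn and Cap1 were high and Gsn and Cap2 low. Dstn, which codes for destrin, a relative of cofilin that severs filaments, had 183, 202 and 176 FPKM. The Dstn entry is described as destrin-like 1, so its match to destrin rests on the symbol. Cap1, which recycles monomers, had 80.2, 96.2 and 79.7 FPKM, and its relative Cap2 had 0.17, 0.10 and 0.20. Gsn, the gene of gelsolin, had 0.93, 1.67 and 1.72 FPKM. It passed at 1 FPKM (Benjamini-Hochberg limma adjusted p = 0.034) but not without library 2 (Benjamini-Hochberg limma adjusted p = 0.24) or without library 3 (Benjamini-Hochberg limma adjusted p = 0.12), nor under a plain prior without trend (0.0816).

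Further actin genes outside the group were counted from 6 lists of 82 matched genes. Of these, 77 were above 0 in at least 1 library and were tested. Above 1 FPKM lay 55 of the 77, beside 63.7% of all entries tested. Genes listed at 0 throughout were not tested but stay in the totals of each list. Of the nucleators and Arp2/3 regulators 15 of 24 passed. Coronins and glia maturation factor beta were highest, with Coro1c at 97.4 ± 3.87, Gmfb at 57.7 ± 5.54 and Coro2b at 50.0 ± 0.832 FPKM. Lmod2 was listed at 0. Of tropomyosins and tropomodulins, which coat filaments and cap their slow-growing ends, 6 of 7 passed, led by Tpm3 at 131 ± 7.48, Tpm4 at 89.4 ± 4.65 and Tpm1 at 31.6 ± 2.12 FPKM, with Tmod1 lowest at 0.817 ± 0.0404. Of other crosslinkers 19 of 27 passed, led by Tagln3 at 223 ± 24.7 and Cnn3 at 222 ± 25.4 FPKM, with Cotl1 at 80.3 ± 11.2, and Espn was listed at 0.

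Of other severing and capping genes 6 of 10 passed, led by the cofilins Cfl1 at 1107 ± 124 and Cfl2 at 81.4 ± 4.91 FPKM and by Wdr1, a cofactor of cofilin, at 46.4 ± 3.08. Scin and Capza3 were listed at 0. Of the myosin list 7 of 9 passed, led by the light chain Myl12b at 185 ± 20.0, the heavy chain Myh10 at 53.1 ± 8.33 and Myl6 at 48.7 ± 6.48 FPKM. Myh9, the relative of Myh10 found in most other tissues, was lowest at 0.21 ± 0.020, in an entry described as myosin-9-like. Of the other actin list 2 of 5 passed, Actl6b at 67.0 ± 3.09 and Actl6a at 22.9 ± 1.26 FPKM, which code for nuclear actin-like subunits of the BAF complex.

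Library 1 was the lowest of the 3 for 27 of the 53 genes, against 36.9% of all entries tested and 35 of 77 further actin genes. All entries tested had a lower median level than the 53 genes (4.81 against 38.6 FPKM). No share at a like level was computed, so the excess cannot be told apart from an effect of level. Arpc1b, Gsn and Fmnl1 were among the 27. Of 8 further actin genes known mainly from blood cells, chosen after their values were seen, 6 were lowest in library 1. Coro1a had 10.9, 16.1 and 15.6 FPKM, Lcp1 2.14, 3.59 and 2.92, Capg 2.42, 3.49 and 3.56, and Hcls1, the blood cell relative of cortactin, 1.33, 2.03 and 2.17, and Was and Nckap1l had the same library lowest. The other 2 were highest in library 1, Gmfg with 5.21, 5.02 and 4.86 FPKM and Abi3 with 0.16, 0.15 and 0.13. Of the 7 microglia and macrophage markers 6 were lowest in library 1, and Cx3cr1, with 0.22, 0.35 and 0.15 FPKM, was lowest in library 3. Their part in the levels of these genes was not tested.

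Most of the genes were highest in library 2, as were most entries. Over 8695 entries with a mean of at least 5 FPKM, library 2 was higher than the mean of libraries 1 and 3 by a median of 0.14 on the log2 scale, and deviations below are relative to that shift. The 42 actin genes of that level had a median deviation of 0.03 (middle 50% from -0.10 to 0.10), against -0.14 to 0.10 for all entries. In FPKM, 33 of the 42 were above both other libraries, as were 67.8% of all entries, and 7 of the 42 were below both, as were 19.4%. No test was possible for a single library against 2 of the same group.

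Once that shift was subtracted, the actin, thymosin, profilin, Arp2/3, capping and turnover genes of that level were above 0 and the formins below it. The medians were 0.14 for the 2 thymosins, 0.10 for the 9 Arp2/3 genes and 0.09 for the 5 genes of capping protein and twinfilin, and each of these 16 genes had a deviation above 0. Medians of the 2 actins, 2 profilins and 2 turnover genes were 0.03, 0.09 and 0.08, also with every gene above 0. The median was -0.18 for 3 formins (-0.18 to -0.14), -0.14 for 4 bundling genes and -0.10 for 9 genes of N-WASP and the WAVE complex, of which Brk1 alone was above 0 at 0.13. Without the subtraction the medians of the bundling genes (0.0049) and of N-WASP and the WAVE complex (0.04) turned positive, and that of the formins stayed below 0 at -0.04. In FPKM, 16 of 16 thymosin, Arp2/3 and capping genes, 6 of 9 N-WASP and WAVE genes, 2 of 4 bundling genes and 1 of 3 formins were above both other libraries. So were 2 of 2 actins, 2 of 2 profilins and 2 of 2 turnover genes. Raph1 stood lowest at -0.54, followed by Enah at -0.27 and Actn4 at -0.23, and Arpc1b highest at 0.32. In the same library the summed commissural markers were lower (172 FPKM, against 245 and 252), though Boc was not (15.0, 15.7 and 15.1 in libraries 1, 2 and 3). The summed progenitor markers were higher (1206 against 949 and 980). Of these Fabp7 had 492, 686 and 514 FPKM, while Hes5, chosen after its values were seen, had 17.5, 17.6 and 13.2. The summed neuron markers were also highest in library 2 (2267, 2449 and 2205 FPKM). These sums are without the shift subtracted, and the part of any of these markers in the deviations was not tested.

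**Figure D4:**
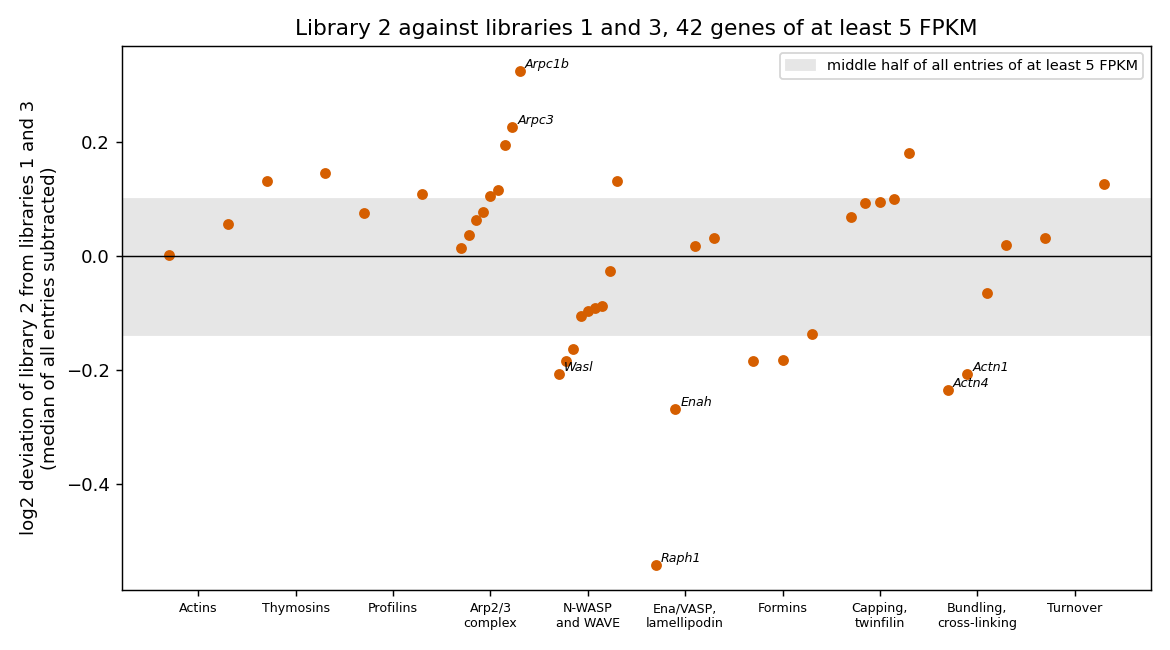
log2 deviation of library 2 from the mean of libraries 1 and 3, less the median of all entries, for the 42 genes with a mean of at least 5 FPKM, 1 point per gene, grouped by role. The grey band is the middle 50% of all 8695 entries (-0.14 to 0.10). With the median subtracted, the actin, thymosin, profilin, Arp2/3, capping and turnover genes lie above 0 and the 3 formins below it.

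Agreement between libraries was otherwise close. The median SD of log2 values over the 3 libraries was 0.11 for the 42 genes and 0.12 for all entries of at least 5 FPKM. The Capza1 share of the alpha chains was 38.7%, 38.2% and 38.7% while Capza1 itself ranged from 48.7 to 56.5 FPKM. The Actn4 share of the alpha-actinin pair was 79.8%, 79.6% and 80.0%. The share with the largest SD was that of Enah among Ena/VASP genes, at 17.9%, 14.8% and 17.1%.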

How the data were processed

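Per the labels, the RNA was polyadenylated, libraries were stranded and reads were paired, each of 50 bp. FastQC, Trimmomatic 0.22, STAR and build rn6 appear in the submitters' processing notes. No source used here gives the program behind the FPKM, its annotation, its strand setting or how it treated reads with several places. The FPKM come from a single deposited table, 1 column a library, and were used unscaled as log2(FPKM + 0.1). They summed to 19897900 to 26236600, with 97.6% to 98.2% in 56 undescribed entries above 10000 FPKM. Where an entry had at least 1 FPKM in a pair of libraries and 0 in the other, the median ratio within the pair was 1.03 (libraries 1 and 2, 14 entries), 0.894 (1 and 3, 11 entries) and 0.869 (2 and 3, 6 entries). Of the 8695 entries of at least 5 FPKM, 0.219% to 0.483% had identical values in a pair of libraries, so each library was counted separately.

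Genes were matched by symbol, ignoring case. Of 5 symbols with more than 1 row (Actb, Tmsb10, Tmsb4x, Pfn2, Cttn), the row with the highest mean was taken. Levels were tested with limma 3.58.1 (R 4.3.3, with statmod 1.5.0) as one-sided tests, with a robust prior and a trend, over all 17611 entries above 0, with Benjamini-Hochberg adjustment at 0.05. For pairs, every entry was set against each of 21 reference genes within each library and adjusted over all entries. The noise of a reference enters every ratio of its fit, which can make moderated p-values too small, so the text prints intervals and p-values from the fit without moderation. That choice was made after the data were seen. The tests were checked on simulated data. The gene symbols, lists, pairs and tests were chosen with earlier results of these data known. The rule for named genes covers every matched gene of the group and the partners of the pairs. It also covers the 3 highest and the lowest of each further list. Of each marker list it covers the highest and lowest, of which the text names only some. Genes outside this rule are said to be chosen after their values were seen. RefSeq names and promoter windows are of GRCr8, and no gene coordinates were transferred to rn6. The alternatives were other pseudocounts, scalings, filters, levels, priors, a 1.5-fold margin and each library left out. Python 3.11.15, pandas 2.3.3 and matplotlib 3.10.9 served for tables and plots.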

Additional observations from a re-analysis of the deposited data

How the results depend on the processing

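With each library rescaled to a sum of 1000000, most of which the 56 undescribed entries above 10000 FPKM hold, 28 of the 53 genes lay above 1, 4 above 10 and 0 above 100 in limma's test (1 at an unadjusted p under 0.05), and 20 of the 82 further actin genes lay above 1. Rescaling to the mean sum or mean upper quartile gave 47 and 48 genes above 1 FPKM. The median deviation of library 2 over the 42 genes was 0.17 when the shift of all entries, 0.14, was not subtracted. Leaving out each library in turn gave 46 to 48 genes above 1 FPKM, 38 above 10, 12 to 14 above 100, 55 to 56 further actin genes above 1 FPKM and 28 to 30 pairs. Over pseudocounts of 0.01 and 1, other filters and a plain prior, 47 to 48 genes lay above 1 FPKM, 9 to 14 above 100 FPKM and 28 to 30 pairs differed. Part of the lower pair counts came from pairs that were not tested. The pair with Fmn1 dropped out without library 3, and the pairs with Fmn1 and with Cap2 did so under the filter on mean FPKM. The cause was not tested where a call near its threshold changed. No ratio changed direction after passing the threshold in any alternative run. Adding up the rows of a symbol and testing described entries only, both chosen after seeing the data, left 48 genes above 1 FPKM. No paired analysis was possible because the 3 libraries form 1 group. Without counts, the precision that depth sets for low genes such as Fmn1 and Cap2 is not known.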
